A study of Mus musculus with 6 samples.

Results

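Postsynaptic scaffold genes and synaptic adhesion genes were followed in mouse cortical neurons, 39 of the 54232 genes in the deposited count tables. The members were chosen by symbol: 20 encode proteins of the postsynaptic density and its signalling machinery, and 19 encode molecules that link the presynaptic to the postsynaptic membrane. Each symbol matched 1 gene row, and all 39 genes passed the filter on low counts. RNA was sequenced in 6 libraries of wild-type neurons from CD1 mice, an outbred stock, with a repeat 1 and a repeat 2 in each of 3 groups. The control carries PDL in its library names. The group called PA is a peptide amphiphile whose library names carry IKVAV, a peptide sequence known from laminin. The group called PA + PS2 carries both IKVAV and PEDOT-S, a water-soluble relative of the conducting polymer PEDOT, in its library names. The treatment label reads peptide amphiphile in all 6 libraries, the control included. The sources used here do not give the age of the mice, the culture time, the dose or whether the repeats were separate cultures. The p-values therefore reflect the spread among these libraries alone, which may be technical.

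At an excitatory synapse, MAGUK proteins such as PSD-95 (Dlg4) hold receptors and adhesion molecules beneath the membrane through PDZ domains. GKAP proteins (Dlgap genes) tie this layer to Shank and Homer proteins, which reach to the actin of the dendritic spine, and CaMKII is the abundant kinase of the same structure. Neurexins and the receptor phosphatases PTPRD and PTPRS sit on the axon side. They bind neuroligins, LRRTM, Slitrk and SALM (Lrfn) proteins on the dendrite side, and secreted cerebellins bridge neurexins to receptors across the cleft.

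Several of these contacts depend on the last residues of a protein, which a PDZ domain grips: the neuroligin tail binds MAGUK proteins and the Dlgap tail binds Shank proteins. The ends of the coding sequences of the neuroligin and Dlgap members are shown because they are the joints between the adhesion and scaffold genes described here. Each sequence runs 5′ to 3′ on the coding strand, has 30 bases ending in the stop codon, and has the last 4 codons before the stop in capitals (GENCODE M21 transcripts, GRCm38).
Nlgn1, chr3:25433638-25433667, minus strand: ccccattcacattcaACAACCAGGGTAtag
Nlgn3, chrX:101320233-101320262, plus strand: ccccactcacactccACTACCCGTGTAtag
Dlgap1, chr17:70818205-70818234, plus strand: tacatccccgaggcgCAGACCCGGCTCtga
Dlgap2, chr8:14846679-14846708, plus strand: tacatccctgaggccCAGACGCGGCTCtga
Dlgap3, chr4:127236339-127236368, plus strand: tacatccccgaggccCAGACCAGGCTGtga
Dlgap4, chr2:156762874-156762903, plus strand: tatgtccccgaggccCAGACCAGGCTCtaa
The capitals differed at 3 of 12 bases between Nlgn1 and Nlgn3 and at 1 to 3 of 12 between any pair of Dlgap genes. These differences within a family are synonymous, so the 4 codons encode the same residues. Between a neuroligin and a Dlgap gene the capitals differed at 5 to 7 of 12 bases. The ends shown were shared by 8 of 10 complete Dlgap1 transcripts, 6 of 7 of Dlgap4 and every complete transcript of the other 4 genes. The counts are per gene and do not separate transcripts with different ends.

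Library totals ran from 30714311 to 33923681 counts, and 23667 to 25190 genes had at least 1 count. Levels are given as CPM (counts relative to the library total, with TMM scaling), or as RPKM (the same divided by exon length in kb) where genes are compared with each other. The neuron label was checked against 8 neuron markers: their summed level was 6843 to 7528 CPM, and the lowest of the 8 averaged 91.6 CPM. Every marker gene of other cells had counts in some library, but several stayed near 0 CPM, such as Cldn5, Cdh5, Itgam and P2ry12. The 8 astrocyte markers summed to 197.5 to 403 CPM and the 8 progenitor markers to 213.5 to 474 CPM. The 8 fibroblast and mural markers summed to 39.4 to 170 CPM and the 9 oligodendrocyte lineage markers to 57.9 to 152. The 7 microglia markers summed to 2.96 to 5.08 CPM and the 6 endothelial markers to 4.68 to 10.3. Only 4 of the 7 microglia and 3 of the 6 endothelial markers passed the filter on low counts. Single genes made up most of some sums: Slc1a2 (163.4 to 215.5 CPM, astrocyte), Aif1 (2.09 to 3.60, microglia) and Kdr (2.47 to 6.75, endothelial). In bulk RNA, fewer cells of a type and less RNA per cell cannot be told apart. Whether the counting used strand is not stated in the sources at hand, and 14 of the 39 genes overlap an exon on the other strand, Nlgn1, Ptprd, Lrfn2, Lrrtm4, Homer2, Homer3, Shank1 and Shank3 among them.

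Per exon length, the kinase subunit gene Camk2b was highest, at 89.4 ± 4.45 RPKM (SD, n = 6 libraries). The nectin-like adhesion gene Cadm3 (84.9 ± 6.89 RPKM) and Ppp1r9b, which encodes the spine protein spinophilin (78.7 ± 6.49 RPKM), came next. Their ranges over the libraries overlapped in sequence, whereas Ppp1r9b (71.6 RPKM or more) stood clear of Ptprs (52.8 RPKM or less). Lrrtm4 was lowest, at 1.37 ± 0.218 RPKM. Of the 38 neighbouring pairs in this order, 34 had overlapping ranges, so most of the order is not resolved between these libraries. In 33 genes the highest library was less than 1.5 times the lowest, and in 6 genes it was 1.5 times or more: Camk2a, Nrgn, Baiap2, Lrrtm4, Cbln1 and Cbln2.

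**Figure D1:**
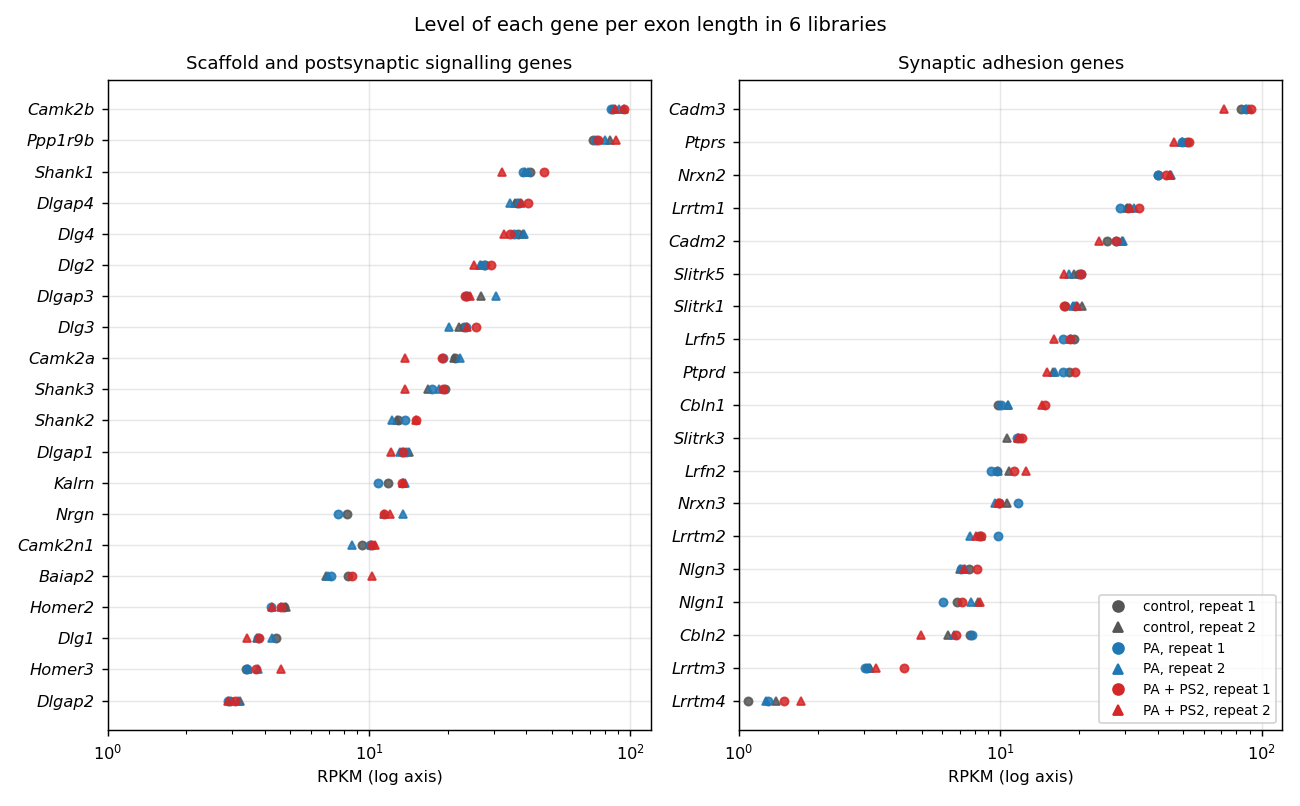
Level of the 39 genes in RPKM (log axis), scaffold and signalling genes on the left and adhesion genes on the right, with 1 point for each of the 6 libraries. Camk2b and Cadm3 lead the panels, Dlgap2 and Lrrtm4 end them, and the points of most genes lie close together compared with the distance between genes.

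Within gene families, the shares of the summed RPKM were similar across libraries. Of Dlg1 to Dlg4, Dlg4 held 37.2 to 43.4%, Dlg2 (PSD-93) 29.4 to 31.3%, Dlg3 (SAP102, known as the MAGUK of early synapses) 22.4 to 27.9% and Dlg1 (SAP97) 4.01 to 4.78%. Among the Shank genes, Shank1 held 52.7 to 57.8%, Shank3 22.5 to 26.4% and Shank2 17.1 to 24.9%. Among the GKAP genes, Dlgap4 held 42.5 to 50.6%, Dlgap3 28.9 to 37.5%, Dlgap1 15.6 to 17.8% and Dlgap2 3.72 to 4.0%. Among the LRRTM genes, which encode neurexin ligands with leucine-rich repeats, Lrrtm1 held 67.0 to 72.9%. Every library thus had the same leading gene in each of these 4 families.

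Cbln1, which encodes a secreted cerebellin that joins neurexins to glutamate receptors of the delta type, differed most between groups. It lies on chromosome 8 at 87468405 to 87472609 (minus strand, GRCm38). Its level was 29.9 and 32.6 CPM in control neurons, 30.5 and 32.6 with PA, and 45.2 and 43.8 with PA + PS2. Both PA + PS2 libraries were above all 4 others, and the control and PA ranges overlapped. The means (± SD, n = 2) were 31.2 ± 1.91 CPM for control, 31.5 ± 1.5 for PA and 44.5 ± 0.951 for PA + PS2. The log2 fold change against control was 0.51 (SE 0.10), with an adjusted p of 0.403 (edgeR quasi-likelihood test, Benjamini-Hochberg) without the repeat number in the model. With the repeat number as a block the gene passed the threshold of 0.05 (edgeR adjusted p = 0.0333), and it also passed in DESeq2 without a block (adjusted p = 0.0117). Against PA the log2 fold change was 0.50 (SE 0.10), with edgeR adjusted p-values of 0.318 without and 0.025 with the block, and 0.00989 in DESeq2. Both comparisons use the same PA + PS2 libraries.

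The Cbln1 call with the block was lost when some single libraries were left out, and held without others. With the block, the edgeR adjusted p against control was 0.342 without control 1, 0.362 without control 2 and 0.119 without PA + PS2 repeat 2. Against PA it was 0.0883 without PA + PS2 repeat 2. With all 6 libraries, Cbln1 also passed in edgeR with no filter on low counts (adjusted p = 0.00806 against control, 0.00821 against PA). It passed in DESeq2 with the block too (adjusted p = 0.00904 and 0.0093). With the block and only the 2 groups compared, it passed in edgeR against control (adjusted p = 0.000689) but not against PA. Over all alternatives the log2 fold change kept its sign.

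Cbln2, a second cerebellin gene, was at 22.2 and 18.2 CPM in control neurons, 22.4 and 19.3 with PA, and 19.6 and 14.4 with PA + PS2. Its ranges overlapped between groups. Its log2 fold change was -0.25 (SE 0.18) against control and -0.30 (SE 0.18) against PA, and neither passed (edgeR adjusted p = 0.918 and 0.826; with the block 0.454 and 0.319). The ratio of Cbln1 to Cbln2 per exon length was 1.28 and 1.70 in control neurons, 1.29 and 1.61 with PA, and 2.20 and 2.90 with PA + PS2. The PA + PS2 ratios were above the other 4, and within each group repeat 2 had the higher ratio. The ratio contains Cbln1, so it is not independent of the Cbln1 difference given above. An exact two-sided permutation test of 2 libraries against 2 cannot give a p below 0.333, so such ratios are given without a test.

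Among the postsynaptic receptors of the axon-side molecules, Lrfn2 (SALM1, a PSD-95 binding adhesion protein) was at 31.2 and 34.5 CPM in control neurons, 29.5 and 31.3 with PA, and 36.1 and 40.0 with PA + PS2. The PA + PS2 libraries were again the highest pair. The log2 fold change against PA was 0.32 (SE 0.11), which did not pass (edgeR adjusted p = 0.517; 0.135 with the block). Lrrtm4, known as a ligand of neurexins and heparan sulfate proteoglycans, was at 6.64 and 8.52 CPM in control neurons, 7.94 and 7.83 with PA, and 9.15 and 10.6 with PA + PS2. The log2 fold change against control was 0.38 (SE 0.20, edgeR adjusted p = 0.806; 0.43 with the block). Lrrtm3 had its highest level in PA + PS2 repeat 1 (18.1 CPM), against 12.9 to 14.2 CPM in the other 5 libraries. Lrrtm1 was at 86.8 to 103 CPM and Lrrtm2 at 46.1 to 58.8 CPM. Lrfn5 (SALM5) was at 153 to 183 CPM, with PA + PS2 repeat 2 lowest.

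The neuroligins, the classic neurexin partners, were at 81.0 to 112 CPM (Nlgn1) and 65.0 to 75.5 CPM (Nlgn3), and their groups overlapped. Nrxn2 was at 554 to 622 CPM and Nrxn3 at 120.2 to 147 CPM. The Slitrk genes encode dendritic ligands of receptor phosphatases: Slitrk1 was at 93.8 to 109.7 CPM, Slitrk3 at 51.2 to 58.7 and Slitrk5 at 92.1 to 107.5. Their phosphatase partners Ptprd (344.5 to 439 CPM) and Ptprs (693 to 791 CPM), and the adhesion genes Cadm2 (233.5 to 288) and Cadm3 (521 to 660), each had their lowest value in PA + PS2 repeat 2. Ptprd, Ptprs and Cadm3 also had their highest value in PA + PS2 repeat 1, so that the 2 libraries of that group lay at opposite ends. With all 6 libraries, none of these 11 genes passed a group comparison with or without the block. The calls of Cadm2 and Cadm3 changed with the block when PA + PS2 repeat 1 was left out. The log2 fold change was then -0.32 for Cadm2 against PA and -0.29 for Cadm3 against control.

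Camk2a, the CaMKII subunit gene known to increase as forebrain neurons mature, was at 159 and 157 CPM in control neurons, 143 and 166 with PA, and 142 and 103 with PA + PS2. Both PA + PS2 libraries were below the other 4, but PA + PS2 repeat 1 was close to PA repeat 1. The log2 fold change against control was -0.37 (SE 0.15, edgeR adjusted p = 0.707; 0.44 with the block), and against PA -0.34 (SE 0.15, adjusted p = 0.666; 0.473 with the block). Repeat 2 carried most of it: within repeats the log2 ratio to control was -0.17 in repeat 1 and -0.61 in repeat 2. Without PA + PS2 repeat 2 the log2 fold change against control was -0.16, and without PA + PS2 repeat 1 it was -0.63. It passed in some other fits: in edgeR with no filter on low counts (adjusted p = 0.00536 against control, 0.0218 against PA), against control with the block and only the 2 groups compared (0.0263), and with the block without a PA library (0.00207 and 0.00446 against control, 0.000534 against PA without PA repeat 1) or without PA + PS2 repeat 1 (0.000296 and 0.000393).

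The other CaMKII subunit gene, Camk2b, was at 766 to 866 CPM without separation of the groups. The ratio of Camk2a to Camk2b per exon length was 0.248 and 0.223 in control neurons, 0.229 and 0.247 with PA, and 0.200 and 0.158 with PA + PS2. Camk2n1, which encodes an inhibitor of CaMKII, had 45.6 and 46.7 CPM with PA + PS2, beside 38.4 to 45.01 in the other 4 libraries. Nrgn encodes neurogranin, a calmodulin-binding protein of dendrites. It was at 11.98 and 16.6 CPM in control neurons, 11.1 and 19.6 with PA, and 16.6 and 17.5 with PA + PS2. Its libraries differed more within the control and PA groups than the group means did.

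Of the MAGUK genes, Dlg1 was at 47.3 and 40.1 CPM in control neurons, 40.4 and 45.6 with PA, and 40.6 and 36.6 with PA + PS2. Its log2 fold change against control was -0.18 (SE 0.12), which did not pass (edgeR adjusted p = 0.901; 0.614 with the block). Dlg4 was at 490.0 and 515 CPM in control neurons, 473.5 and 520.2 with PA, and 459 and 435 with PA + PS2, whereas Dlg3 was at 135 and 129 in control neurons, 137 and 118.5 with PA, and 149.6 and 139 with PA + PS2. The groups did not overlap between PA + PS2 and the others in either gene, with Dlg4 lower and Dlg3 higher, and neither passed the test. The ratio of Dlg4 to Dlg3 per exon length was 1.61 and 1.76 in control neurons, 1.52 and 1.94 with PA, and 1.35 and 1.38 with PA + PS2, below the other 4 libraries in both. The pairs Camk2a with Camk2b and Dlg4 with Dlg3 were fixed with earlier results of these libraries known. Dlg2 was at 409.8 to 475.5 CPM, with the ends of the range in the PA + PS2 libraries.

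**Figure D2:**
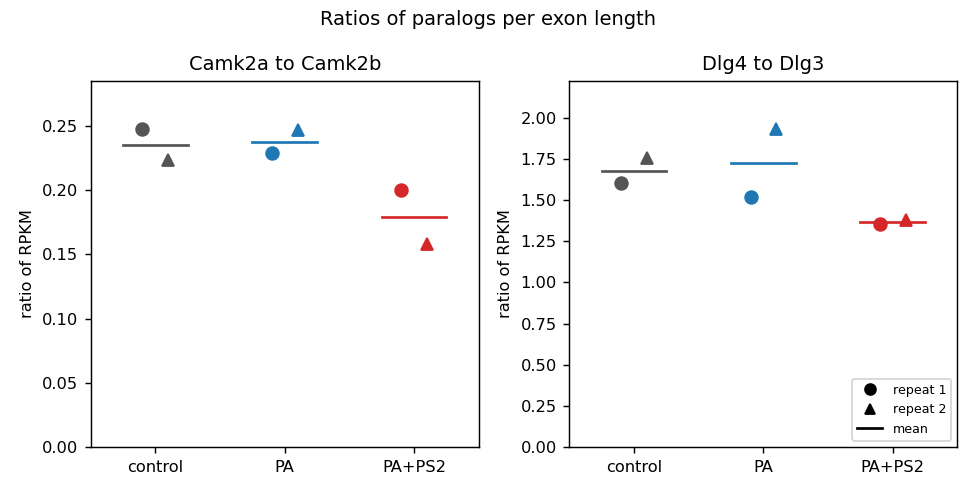
Ratio of Camk2a to Camk2b (left) and of Dlg4 to Dlg3 (right), each in RPKM, in every library (circles repeat 1, triangles repeat 2, lines the group means; axes start at 0). The PA + PS2 libraries, at 0.200 and 0.158 and at 1.35 and 1.38, lie below the control and PA libraries in both panels.

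Of the GKAP genes, Dlgap3 (SAPAP3) was at 107 and 121 CPM in control neurons, 106 and 138 with PA, and 105 and 110.1 with PA + PS2. Its log2 fold change between PA + PS2 and PA was -0.18 (SE 0.13) and did not pass (edgeR adjusted p = 0.876; 0.467 with the block). It rested on PA repeat 2, without which it was 0.03. Dlgap4 had 344 and 322 CPM with PA + PS2, beside 292 to 318 in the other 4 libraries. Dlgap1 (217 to 255 CPM) and Dlgap2 (17.8 to 19.8 CPM) had overlapping groups.

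Baiap2, which encodes the actin-linked spine protein IRSp53, was at 41.4 and 34.1 CPM in control neurons, 35.7 and 34.8 with PA, and 43.1 and 51.4 with PA + PS2. Its log2 fold change was 0.32 (SE 0.13) against control and 0.42 (SE 0.13) against PA, and neither passed (edgeR adjusted p = 0.691 and 0.456; with the block 0.283 and 0.118). It passed against PA in edgeR with no filter on low counts (adjusted p = 0.0304) and with the block without PA repeat 1 (0.0476). With the block and without PA + PS2 repeat 1 it passed against both PA (0.00295) and control (0.014). The 2 repeats differed: PA + PS2 repeat 1 was near control 1, and PA + PS2 repeat 2 was the highest library. Shank2 was at 139.5 and 138 CPM in control neurons, 148 and 131.5 with PA, and 163.2 and 163.3 with PA + PS2. The PA + PS2 pair was the highest, and with all 6 libraries the gene did not pass with or without the block. Its call changed in block fits that left out a PA library. Shank1 and Shank3 instead spread widest within PA + PS2, at 493 and 338 CPM for Shank1 and 175.5 and 126 for Shank3. Shank2, Dlg3, Dlg4, Dlgap4 and Lrrtm3 were singled out after their values were seen.

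Homer proteins cross-link Shank to metabotropic glutamate receptors. Homer3 was at 11.6 and 11.8 CPM in control neurons, 11.7 and 13.0 with PA, and 12.7 and 15.9 with PA + PS2, and Homer2 ran from 53.35 to 60.7 CPM. Kalrn, which encodes the spine protein kalirin, was at 261 to 331 CPM, and Ppp1r9b at 364 to 449 CPM. Both had their lowest values in repeat 1 libraries.

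**Figure D3:**
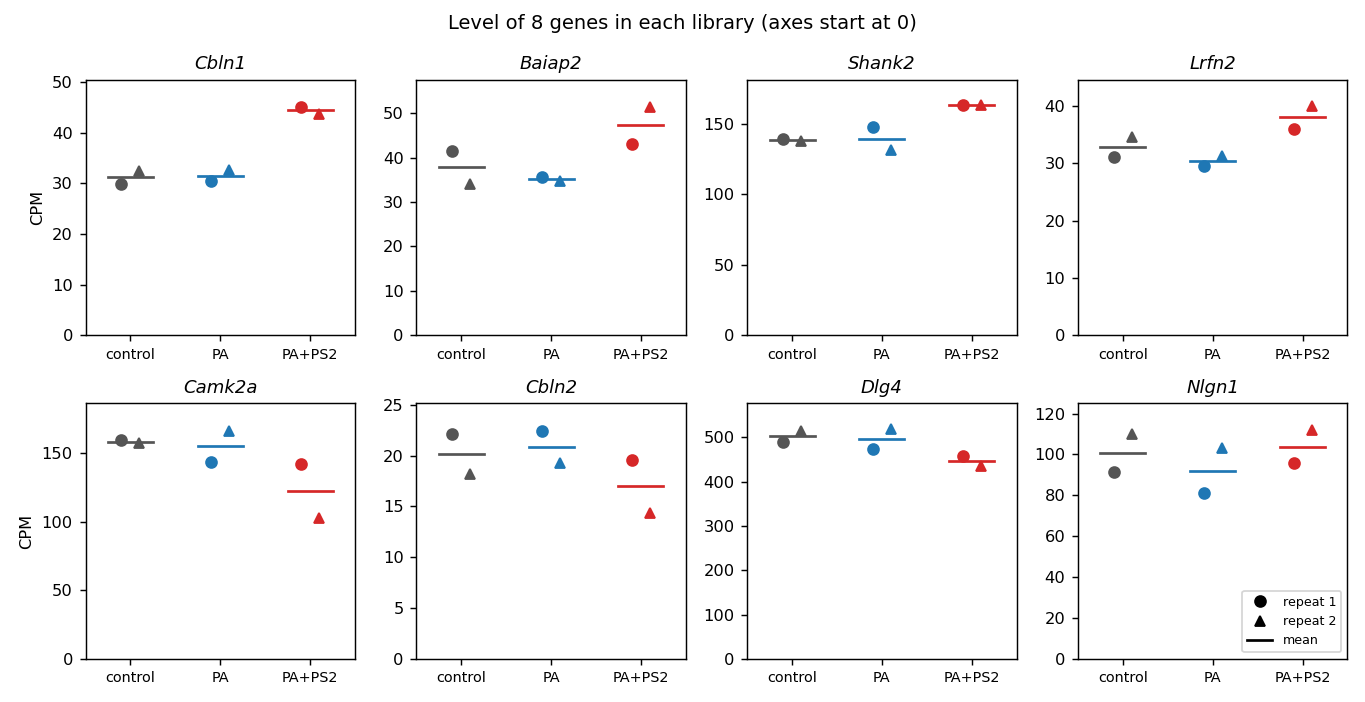
Level in CPM of 8 genes in each library (circles repeat 1, triangles repeat 2, lines the group means; axes start at 0). The PA + PS2 libraries are the highest pair for Cbln1, Baiap2, Shank2 and Lrfn2 and the lowest pair for Camk2a and Dlg4, while Cbln2 and Nlgn1 overlap between groups.

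Counted over the 39 genes, the comparison of PA + PS2 with control centred on no change. The median log2 fold change was 0.00 for the 20 scaffold genes and 0.00 for the 19 adhesion genes, beside 0.02 for all 10776 genes at 5 CPM or more. No gene passed in the edgeR test without the block (0 of 39, and 0% of the 17299 genes tested), and 4 of 39 had an unadjusted p under 0.05 (Cbln1, Shank2 and Baiap2 higher, Camk2a lower), beside 6.81% of all genes. With the block Cbln1 alone passed (1 of 39, higher), beside 0.121% of all genes called higher and 0.699% called in either direction. DESeq2 also called 1 of 39, beside 0.932% of the genes it tested. Which of the 39 genes passed with the block changed with the library left out. In 11 of 39 genes both PA + PS2 libraries were above both control libraries, and in 3 (Dlg4, Homer2 and Camk2a) both were below. Of all genes tested, 16.6% were higher and 17.1% lower by that measure, 33.6% in all. The total of 14 of 39 was near the background. The split of the list leaned to higher genes, and that of all genes tested did not. Among the 10776 genes at 5 CPM or more, a level all 39 reached on average, the split also leaned higher (2011 higher, 1697 lower). The split was not tested.

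The same counts were made against PA, which shares the PA + PS2 libraries with the comparison above. The median log2 fold change of the 39 genes was 0.03, beside 0.01 for all genes at 5 CPM or more. In edgeR without the block 0 of 39 passed, beside 0% of all genes, and 4 had an unadjusted p under 0.05, all higher, beside 7.7%. With the block 1 of 39 passed (Cbln1, higher), beside 0.202% of all genes called higher and 1.52% called in either direction, and DESeq2 called 1 of 39, beside 1.51%. Here too, the members that passed with the block changed with the library left out. Both PA + PS2 libraries were above both PA libraries in 9 genes and below in 3 (Dlg4, Camk2a and Cadm2), beside 16.7% and 18.4% of all genes (35.2% in all). Of the 10776 genes at 5 CPM or more, 1973 were higher and 1822 lower by that measure.

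**Figure D4:**
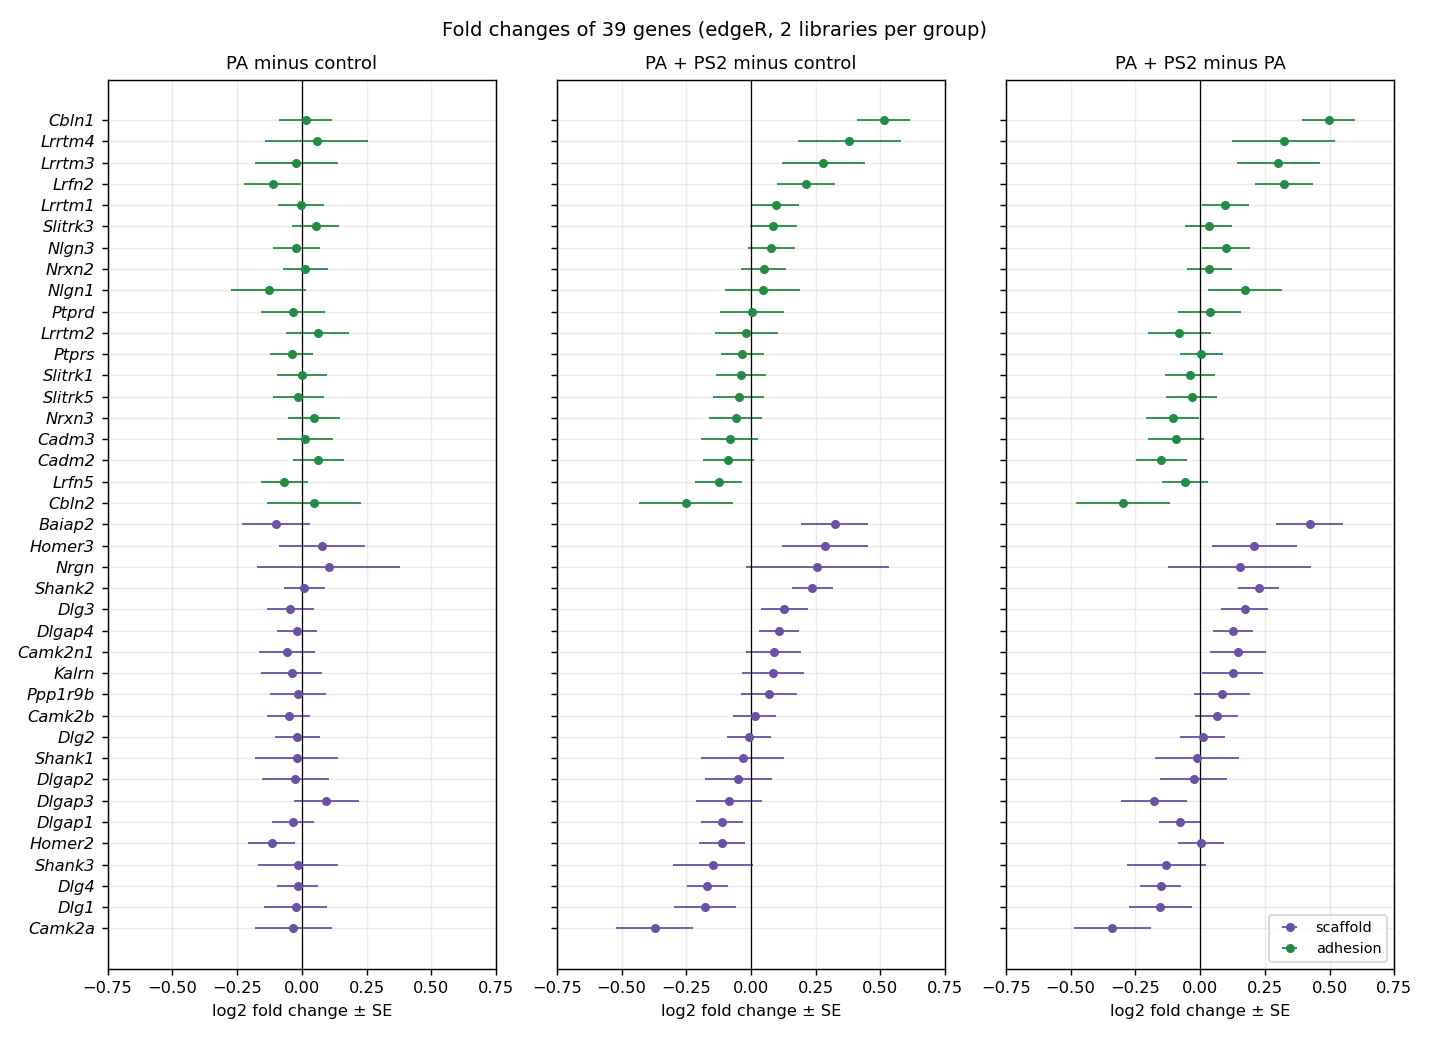
Log2 fold change ± SE of each of the 39 genes in the edgeR fit without the block, for PA against control, PA + PS2 against control and PA + PS2 against PA (scaffold genes purple, adhesion genes green; ordered by the middle panel). In the left panel the genes lie between -0.13 and 0.10; Cbln1 is highest in the other panels, at 0.51 and 0.50, and Camk2a lowest, at -0.37 and -0.34.

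The repeats of PA + PS2 did not place the list alike. In repeat 1, 30 of 39 genes were higher in PA + PS2 than in control, with median log2 ratios of 0.07 for scaffold and 0.07 for adhesion genes. In repeat 2, 17 of 39 were higher, with medians of -0.10 and -0.06. Over all 10776 genes at 5 CPM or more, the medians were 0.01 and 0.02, with 5549 genes higher in repeat 1 and 5954 in repeat 2. Of the 39 genes, 17 were higher in both repeats, 9 lower in both, 13 higher in repeat 1 and lower in repeat 2, and 0 the reverse. Over all genes at 5 CPM or more, these counts were 3595, 2868, 1953 and 2359. The same sign in both repeats was seen in 66.7% of the list and in 60.0% of all those genes. The summed level of the 20 scaffold genes was 4552 CPM in PA + PS2 repeat 1 and 4170 in repeat 2, beside 4206 to 4467 in the other 4 libraries. That of the 19 adhesion genes was 3769 and 3383 CPM, beside 3568 to 3649. The 8 neuron markers were also higher in repeat 1 of that group, at 7436 CPM in PA + PS2 repeat 1 and 6843 in repeat 2, beside 7135 to 7528 in the others. The fibroblast and mural markers were at 98.7 and 39.4 CPM in that order, beside 96.4 to 170 in the other 4. The part of these marker levels in the results was not tested.

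**Figure D5:**
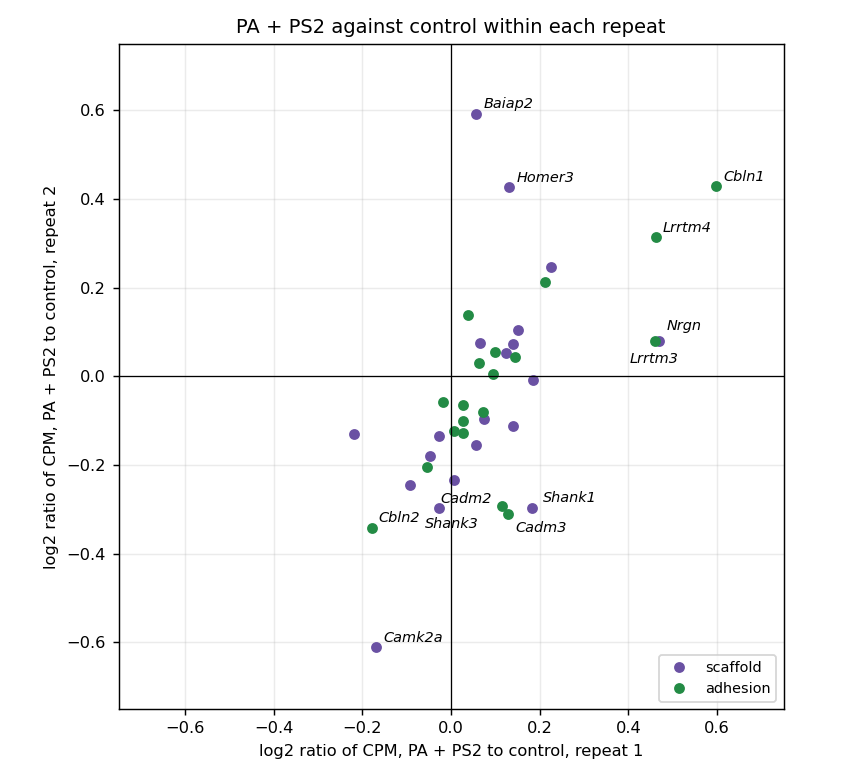
Log2 ratio of CPM between PA + PS2 and control in repeat 1 (horizontal) and repeat 2 (vertical), 1 point per gene (scaffold purple, adhesion green). Cbln1 is high in both repeats (0.60 and 0.43) and Camk2a is low mainly in repeat 2 (-0.17 and -0.61), while 13 genes fall in the lower right and none in the upper left.

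PA alone was compared with control to see what the peptide material changed without PS2. The median log2 fold change was -0.02 for scaffold and 0.00 for adhesion genes, and no gene of the list passed in edgeR with or without the block (0 of 39 in both, and 0% of all genes) or in DESeq2. None had an unadjusted p under 0.05 without the block, beside 0.595% of all genes. The lowest log2 fold changes were those of Nlgn1 (-0.13, SE 0.14), Homer2 (-0.12, SE 0.09) and Lrfn2 (-0.11, SE 0.11). The highest were those of Nrgn (0.10, SE 0.28), Dlgap3 (0.09, SE 0.13) and Homer3 (0.08, SE 0.17). Each had an adjusted p of 1 (edgeR). Several of these signs reversed when a library was left out. Nlgn1 was at 0.03 without PA repeat 1, and Nrgn at -0.11 without control 1 and -0.38 without PA repeat 2. Dlgap3 was at -0.12 and Homer3 at -0.01 without PA repeat 2. Within repeats 1 and 2, the log2 ratio of PA to control kept its sign for Nlgn1 (-0.18 and -0.09) and Homer3 (0.01 and 0.14). It changed sign for Nrgn (-0.11 and 0.24) and Dlgap3 (-0.02 and 0.19). The PA libraries were apart from the control libraries in 2 of 39 genes, Homer2 and Ptprs, both lower, beside 12.1% of all genes higher and 9.69% lower (21.8% in all). The standard errors of the list had a median of 0.11, from 0.08 to 0.28, without the block and of 0.09 with it.

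Repeat 2 was compared with repeat 1 over the 3 groups, because more genes passed between repeats than between groups. Nlgn1 rose in repeat 2: it was at 91.6 CPM in control repeat 1 and 109.8 in control repeat 2, at 81.0 and 103 with PA, and at 95.7 and 112 with PA + PS2. Every repeat 2 library was above every repeat 1 library. The log2 fold change was 0.28 (SE 0.06, edgeR adjusted p = 0.0197). The call was lost without control 1 (adjusted p = 0.184), without control 2 (0.196) and with the repeat number alone in the model (0.069). Nrgn had a log2 fold change of 0.46 (SE 0.14, edgeR adjusted p = 0.0869) and Dlgap3 of 0.21 (SE 0.07, 0.114). The lowest were Cbln2 at -0.31 (SE 0.10, adjusted p = 0.103), Ptprd at -0.22 (SE 0.06, 0.0584) and Shank3 at -0.20 (SE 0.10, 0.324). Thus 1 of 39 genes passed, higher in repeat 2, beside 1.94% of all genes called higher and 4.9% called in either direction (DESeq2 1 of 39, beside 5.53%). The members that passed between repeats also changed when a library was left out. Of the 39 genes, 6 were higher in every repeat 2 library than in any of repeat 1 and 4 lower, beside 10.4% and 12.4% of all genes (22.8% in all). The oligodendrocyte lineage markers were higher in repeat 2 of each group (108, 152 and 91.1 CPM, beside 59.0, 57.9 and 60.3 in repeat 1), and so were the progenitor markers (433, 474 and 235.5 CPM, beside 277, 320.1 and 213.5). The astrocyte markers were higher in repeat 2 of each group too (277, 403 and 239 CPM, beside 208, 225 and 197.5), with 3 of 8 called higher in edgeR, as were 3 of 8 progenitor markers and 0 of 9 oligodendrocyte lineage markers. The microglia markers were low throughout and higher in repeat 2 of each group (3.93, 5.08 and 3.77 CPM, beside 3.37, 3.84 and 2.96). The inhibitory neuron markers were lower in repeat 2 of each group (823.5, 784 and 758 CPM, beside 901, 1006 and 797; 1 of 6 called lower), and so were the endothelial markers (7.36, 6.25 and 4.68 CPM, beside 8.94, 10.3 and 5.16). Of the fibroblast and mural markers 2 of 8 were called lower, while their sum was lower in repeat 2 of PA and PA + PS2 and higher in the control. The part of these lists in the Nlgn1 result was not tested.

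Other genes of the same structures were taken from a fixed list, 39 scaffold and spine genes and 41 adhesion genes, all of which passed the filter. In edgeR without the block 0 of 80 passed in any group comparison, beside 0% of all genes. At an unadjusted p under 0.05 the scaffold list had 0 genes for PA against control, 4 for PA + PS2 against control and 5 against PA. The adhesion list had 0, 5 and 11. The shares of all genes in these comparisons were 0.595%, 6.81% and 7.7%. With the block 2 of 80 passed, both between PA + PS2 and PA, beside 1.52% of all genes. Cadm1, a relative of Cadm2 and Cadm3, was higher (399 ± 68.5 against 316 ± 25.3 CPM, SD, n = 2; log2 fold change with the block 0.33, edgeR adjusted p = 0.037). Dlgap5, a relative of the GKAP genes whose product is known as a mitotic spindle protein, was lower (0.691 ± 0.15 against 3.85 ± 1.74 CPM; log2 fold change with the block -2.36, edgeR adjusted p = 0.0317). With the block, Cadm1 was at an adjusted p of 0.0623 without control 1, 0.0678 without control 2, 0.208 without PA repeat 2 and 0.394 without PA + PS2 repeat 2, and Dlgap5 at 0.328 without PA + PS2 repeat 2. The progenitor markers, a list with the division genes Mki67 and Top2a, moved with it, at 213.5 and 235.5 CPM in PA + PS2 beside 320.1 and 474 in PA, and their part was not tested.

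The extremes of these lists at 5 CPM or more did not pass. Between PA + PS2 and control, the spine apparatus gene Synpo had the lowest log2 fold change of the scaffold list (-0.41, SE 0.17, edgeR adjusted p = 0.709) and Prr7 the highest (0.26, SE 0.14, 0.843). Cbln4, a further cerebellin gene, was lowest (-0.50, SE 0.30, 0.861) and the latrophilin gene Adgrl2 highest (0.25, SE 0.09, 0.667) of the adhesion list. Between PA + PS2 and PA, Ppp1r1b (-0.52) and Slitrk4 (-0.40) were lowest and Prr7 (0.30) and Cadm1 (0.34) highest, with adjusted p-values of 0.524 to 0.692. Between PA and control the extremes were -0.21 (Flrt1) and 0.12 (Sorbs2). Between repeats 3 of 80 genes passed (edgeR), beside 4.9% of all genes. Ntrk3 (log2 fold change 0.34, edgeR adjusted p = 0.015) and Cadm1 (0.24, 0.0336) were higher in repeat 2, and Igsf9 (-0.29, 0.0207) was lower. Each of the 3 missed the threshold when a control library was left out (adjusted p = 0.166 to 0.309), and Cadm1 also when a PA + PS2 library was left out (0.106 and 0.127).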

How the data were processed

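Each deposited file holds 1 library as unnormalized read counts by Ensembl gene identifier, which its whole-number values bear out. The tools DESeq2 1.14.1, HTSeq 2.0.2, STAR 2.7.5 and cutadapt 4.2 and the build mm10 are listed in the submitters' processing notes, without roles; the sources used here give no settings or annotation release. The labels' protocols name a total RNA kit, whereas the molecule label names polyadenylated RNA. Symbols, coordinates and exon lengths came from GENCODE M21 (GRCm38), in which 54079 identifiers matched.

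Differences were tested by the quasi-likelihood method of edgeR 4.0.16 (R 4.3.3), with TMM scaling, its robust option and its filterByExpr filter applied by group. A single model held the 6 libraries (3 residual degrees of freedom, or 2 with the repeat number as a block), and p-values were adjusted over 17299 genes (Benjamini-Hochberg, threshold 0.05). edgeR's common biological variation was 16.7% without and 9.6% with the block. Medians and counts of directions within repeats used log2(CPM + 0.1), and within-repeat ratios of single genes used CPM with nothing added. The script was tested on simulated data. Alternatives were RLE factors, library totals, 2 other filters, DESeq2 1.42.0, limma-voom (limma 3.58.1), the 2 groups compared alone, the block, and leaving out each library.

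Deviations of same-numbered libraries correlated at 0.35 (control and PA), 0.36 (control and PA + PS2) and 0.21 (PA and PA + PS2). With 2 pairs per comparison, the pairing comes from the data, as the labels name no shared litter, batch or day, and block values are given beside results they change. Fold changes with tests are printed for genes called with or without the block and the 3 highest and 3 lowest per comparison at a mean of 5 CPM or more; related genes are named where called or extreme in their list. The members and lists were chosen with earlier results of these data known.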

Additional observations from a re-analysis of the deposited data

How the results depend on the processing

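Counts of calls depended on the setting more than the fold changes did. For PA against control, where edgeR called 0 genes, no filter called 2, the block in DESeq2 called 1, and the block with only the 2 groups compared, an alternative chosen after seeing the data, called 2; leaving out each library gave 0 to 35 (31 with the block without PA repeat 1), and no setting called any of the 39 genes. For PA + PS2 against control, where 0 genes passed, the replicate block called 121 genes (1 of the 39), no filter 425 (2), DESeq2 130 (1), the block in DESeq2 279 (1) and the block with 2 groups 705 (2). Leaving out a library gave 0 to 29 genes without the block and 4 to 942 with it (137 without control 1, 874 and 816 without PA repeats 1 and 2, 15 without PA + PS2 repeat 2), and 0 to 6 of the 39, the 6 without PA + PS2 repeat 1. For PA + PS2 against PA, the block called 263 genes (1 of the 39), no filter 501 (3), DESeq2 200 (1), the block in DESeq2 364 (1) and the block with 2 groups 131 (0). Leaving out a library gave 0 to 13 genes without the block and 32 to 1021 with it (295 and 250 without control 1 and 2, 1008 and 196 without PA repeats 1 and 2), and 0 to 7 of the 39. Between repeats, 847 genes and 1 of the 39 passed; no filter called 1486 (8 of the 39), the repeat number alone 470 (0), library totals 2 of the 39 and limma-voom 3, and leaving out a library gave 218 to 1489 genes and 0 to 5 of the 39.

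Among the genes of the list whose fold changes are printed with tests, 4 reversed sign when a library was left out. These 4 had log2 fold changes from -0.18 to 0.10 with every library. The count does not cover the other genes of the list, whose signs may also reverse. For PA against control, Nlgn1 ran from -0.33 to 0.03 (0.00 without control 2, 0.03 without PA repeat 1) and Nrgn from -0.38 to 0.45 (-0.11 without control 1, -0.38 without PA repeat 2, -0.23 with the block). Dlgap3 ran from -0.12 to 0.27 (-0.12 without PA repeat 2, -0.06 with the block), and Homer3 from -0.04 to 0.18 (-0.04 without control 2 with the block; -0.01 without PA repeat 2 and 0.15 without PA repeat 1, no block). Dlgap3 between PA + PS2 and PA ran from -0.35 to 0.03. The cause of these changes was not tested. In the related genes the block moved Dlgap5 and Cadm1 past the threshold between PA + PS2 and PA. The block changed the call of Cbln1 and of no other of the 39 genes. Other scalings moved the median log2 fold change of all genes by less than 0.1. With 2 libraries per group, a fit that leaves out a library assumes that the lone one varies like the other groups.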
